A study of Mus musculus with 27 samples.

Results

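Small leucine-rich proteoglycans (SLRPs) were followed at the transcript level in mouse tibialis anterior muscle after volumetric muscle loss (VML), the surgical removal of more muscle than the tissue can rebuild. The 9 genes Dcn (decorin), Bgn (biglycan), Aspn (asporin), Lum (lumican), Fmod (fibromodulin), Prelp, Omd (osteomodulin), Ogn (osteoglycin) and Podn (podocan) were chosen by symbol from the 54532 genes of the deposited table. The animals were male C57BL/6 mice, 8 weeks old, in which 40% of the tibialis anterior was cut out, and muscles were taken 3 days (n = 5), 7 days (n = 6), 14 days (n = 6) or 21 days (n = 5) later. Muscle labelled control, without an injury, came from the same strain with the same labelled age of 8 weeks (n = 5). The labels name no transgene or agent in any group. The study's methods describe the excision as bilateral and the public record describes it as unilateral, and the sample labels do not say whether the 27 samples came from separate animals, so p-values may measure only the spread between samples.

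SLRPs are secreted proteins with a core of leucine-rich repeats, and many carry a chondroitin, dermatan or keratan sulfate chain. They sit on collagen fibrils and set fibril diameter and spacing, and several also bind growth factors such as TGF-beta or act on cell-surface receptors. In skeletal muscle they are known mostly as products of fibroblasts and tendon cells in the connective tissue around the fibres, not of the muscle fibres. The family is divided by sequence into classes, of which class I (Dcn, Bgn, Aspn), class II (Lum, Fmod, Prelp, Omd), class III (Ogn) and the non-canonical class V (Podn) are represented.

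On GRCm38, most of these genes lay in pairs or triplets. Dcn (chr10:97479609-97518143, plus strand) is followed after 46984 bases by Lum (chr10:97565128-97572703, plus). Aspn (chr13:49544443-49567565, plus), Omd (chr13:49582462-49592822, plus) and Ogn (chr13:49608046-49624501, plus) stand in a row with 14896 and 15223 bases between them. Prelp (chr1:133910304-133921414, minus) and Fmod (chr1:134037254-134048277, plus) are 115839 bases apart, whereas Bgn (chrX:73483602-73495933, plus) and Podn (chr4:108014791-108096445, minus) have no other member beside them. The libraries did not keep strand, so reads of overlapping genes on opposite strands cannot be told apart: Prelp shares 350 exonic bases with the antisense gene Gm15851, which was listed at no more than 3 reads in any sample, and Aspn shares 7 exonic bases with Cenpp, whose span covers Aspn, Omd and Ogn on the minus strand.

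The bases before the transcription start are shown for Bgn and Aspn, the 2 members with the highest correlation over all samples, and for Fmod, whose correlation with both was near 0. They were read from RefSeq promoter windows of GRCm38.p6, in which 7 of the 9 genes were found, and run 5′ to 3′ on the gene's own strand over 250 bases that end just before the start. Capitals mark GC boxes (GGGCGG, bound by Sp1) and TATA boxes (TATAAA), searched on both strands, where overlapping matches run together.
Bgn: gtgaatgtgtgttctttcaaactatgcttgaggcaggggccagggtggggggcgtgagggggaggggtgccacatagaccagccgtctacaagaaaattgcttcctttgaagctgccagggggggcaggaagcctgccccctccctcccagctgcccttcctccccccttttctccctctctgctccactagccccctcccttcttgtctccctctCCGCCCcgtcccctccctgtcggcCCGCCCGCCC
Aspn: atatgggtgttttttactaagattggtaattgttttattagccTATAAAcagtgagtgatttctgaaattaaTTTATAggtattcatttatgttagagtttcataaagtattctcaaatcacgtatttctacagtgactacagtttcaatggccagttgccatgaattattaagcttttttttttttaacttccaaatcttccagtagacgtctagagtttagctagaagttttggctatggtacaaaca
Fmod: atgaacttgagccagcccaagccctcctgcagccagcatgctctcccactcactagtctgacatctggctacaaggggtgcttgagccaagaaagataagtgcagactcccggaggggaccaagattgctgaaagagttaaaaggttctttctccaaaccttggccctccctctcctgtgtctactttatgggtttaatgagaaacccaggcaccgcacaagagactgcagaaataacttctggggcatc
The Bgn window (chrX:73483351-73483600) was 64.4% G and C and held 3 GC boxes and no TATA box. The Aspn window (chr13:49544193-49544442) was 30% G and C and held 2 matches to the TATA box letters. The first of them began 207 bases before the transcription start, and neither lay close to it. The Fmod window (chr1:134037004-134037253), at 51.2%, held neither motif. At least 1 GC box was present in 33.0% and at least 1 TATA box in 12.3% of 32536 windows of this length. The AP-1 letters TGANTCA, present in 6.73% of these windows, were in none of the member windows. The base composition thus differed between Bgn and Aspn, and a match to a motif is a description of these letters only.

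Against control, 6 of the 8 SLRPs that could be tested were higher on day 3, 5 on day 7, 5 on day 14 and 1 on day 21, and none was lower at any of these times. Bgn rose most on day 3, and Lum, Aspn, Ogn and Podn rose at days 3, 7 and 14. Prelp rose on day 3, and Dcn and Fmod passed the test at no time. Tests were made with limma on log2(FPKM + 1) over the 14630 genes that reached an FPKM of 0.5 in 5 or more samples, with p-values adjusted after Benjamini and Hochberg within each comparison and a threshold of 0.05, and a fold change on this scale understates the change of low genes. For comparison, 23.4% of all genes tested were called higher on day 3, 15% on day 7, 9.02% on day 14 and 1.74% on day 21. The median log2 fold change over all genes was 0.01 to 0.03 at these times. As whole muscle was sequenced, more cells of a type cannot be told apart from more RNA per cell.

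**Figure D1:**
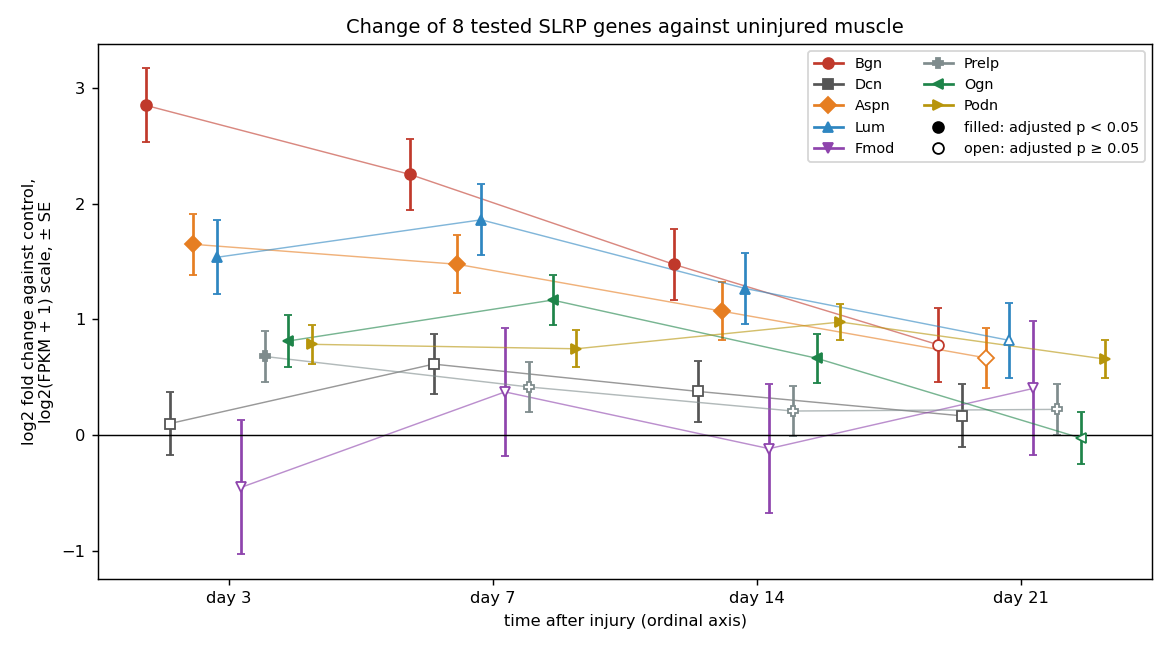
Log2 fold change of each tested SLRP against control at days 3, 7, 14 and 21 (limma, log2(FPKM + 1) scale, bars ± SE, filled symbols for an adjusted p under 0.05). Bgn starts at 2.85 and falls to 0.78, Lum peaks at 1.86 on day 7, and the wide bars of Fmod span 0 at every time.

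The depth was 14376395 to 24436763 reads per sample, and the deposited FPKM was not scaled to these totals but to values that were on average 0.782 times the total in control and 1.25 times on day 3. When the FPKM of each sample was brought to the same sum, the median of all genes moved up by 0.495 on day 3, 0.448 on day 7, 0.272 on day 14 and 0.101 on day 21 on the log2 scale, and 95.5% of the day 3 calls were higher instead of 54.1%. With each sample's own total of reads the median moved by 0.39, 0.332, 0.225 and 0.102. Quantile normalization lowered it by 0.129 on day 3 and left 42.6% of the calls higher. Every member call at days 3, 7 and 14 was kept under these 3 scalings, and the call on day 21 was kept under none of them. The sizes differed more: with a common sum the log2 fold changes of the 6 members called on day 3 were larger by 0.575 (Podn) to 0.783 (Bgn), and with own totals by 0.453 to 0.627. Ogn on day 3 was thus 1.55 with a common sum and 1.41 with own totals instead of 0.81, and Prelp 1.39 and 1.25 instead of 0.68. Of the 27 libraries, 9 lay nearer to the mean of another group than to that of their own, among them day 3 replicate 5, nearest to day 7, and day 7 replicate 5, nearest to day 3. The 9 also included day 7 replicate 3, nearest to control, and day 7 replicate 6, nearest to day 21.

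Among the class I genes, biglycan, which carries chondroitin or dermatan sulfate chains and can act on Toll-like receptors when freed from matrix, showed the largest change. Its FPKM was 14.2, 14.8, 7.49, 10.96 and 8.93 in the 5 control samples and 69.4, 91.1, 90.1, 104.5 and 74.6 on day 3. On day 7 it ran from 24.6 to 104.0 (median 62.1) and on day 14 from 17.9 to 55.5 (median 37.1). The last time point gave 16.6, 21.3, 28.4, 13.7 and 20.5. All samples of days 3, 7 and 14 lay above the highest control sample, whereas on day 21 the ranges overlapped and 4 of 5 samples lay above it. The mean was 85.9 ± 14.1 (SD, n = 5) on day 3 against 11.3 ± 3.20 in control. The log2 fold change was 2.85 ± 0.32 (SE) on day 3 (limma, adjusted p = 5.36e-07), 2.25 ± 0.31 on day 7 (limma, adjusted p = 1.97e-05), 1.48 ± 0.31 on day 14 (limma, adjusted p = 0.00220) and 0.78 ± 0.32 on day 21 (limma, adjusted p = 0.170). The day 21 difference did not pass the test.

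Asporin, a class I protein without a glycosaminoglycan chain that binds collagen and TGF-beta, followed the same order of groups at a lower level. Its FPKM in control was 10.2, 7.38, 4.67, 9.32 and 4.32. It was 19.9, 23.7, 24.6, 21.0 and 29.5 on day 3, from 11.05 to 28.6 (median 22.1) on day 7 and from 8.505 to 22.3 (median 18.3) on day 14. All day 3 and day 7 samples were above the control range, and day 14 replicate 6 alone of its group was within it. Aspn was higher by 1.65 ± 0.26 (SE, log2) on day 3 (limma, adjusted p = 2.72e-05), by 1.48 ± 0.25 on day 7 (adjusted p = 0.000215) and by 1.07 ± 0.25 on day 14 (adjusted p = 0.00457). The day 21 values were 8.46, 14.4, 11.9, 8.31 and 15.9, with 2 of 5 samples inside the control range, and the log2 fold change of 0.67 ± 0.26 did not pass (adjusted p = 0.150).

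Decorin, the best-known member of class I and a binder of collagen, TGF-beta and myostatin, was the most abundant SLRP in control by FPKM, which is scaled by gene length. Its FPKM in control was 25.8, 47.8, 16.2, 35.6 and 28.2. On day 3 it was 30.1, 24.2, 31.2 and 23.3 in 4 samples and 54.6 in replicate 5. It ran from 26.4 to 57.8 (median 47.4) on day 7, from 20.1 to 49.4 (median 42.2) on day 14, and from 23.1 to 41.2 (median 34.0) on day 21. The groups overlapped at every time, although 3 of 6 samples on day 7 were above the highest control sample. The log2 fold change was 0.10 ± 0.27 (SE) on day 3 (limma, adjusted p = 0.798), 0.61 ± 0.26 on day 7 (adjusted p = 0.0759), 0.38 ± 0.26 on day 14 (adjusted p = 0.310) and 0.17 ± 0.27 on day 21 (adjusted p = 0.771). Dcn was called higher on day 3 when FPKM was rescaled to a common sum or to each sample's own total, settings that also moved the median of all genes up. On day 7 it was called in 5 of 14 alternatives, without control replicate 2 and without day 7 replicate 5.

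Lumican, a class II keratan sulfate proteoglycan of collagen fibrils, had its highest mean on day 7. Its FPKM was 13.3, 10.3, 5.50, 13.1 and 6.86 in control, and on day 3 it was 22.3, 27.3, 24.7 and 24.8 in 4 samples and 54.0 in replicate 5. It ran from 19.5 to 60.2 (median 41.8) on day 7 and from 12.5 to 34.1 (median 29) on day 14. The day 21 values were 16.4, 17.03, 23.05, 15.3 and 15.3. All samples of days 3, 7 and 21 were above the control range, and 5 of 6 on day 14. Lum was higher by 1.54 ± 0.32 (SE, log2) on day 3 (limma, adjusted p = 0.000439), by 1.86 ± 0.31 on day 7 (adjusted p = 0.000162) and by 1.27 ± 0.31 on day 14 (adjusted p = 0.00578). On day 21 the log2 fold change of 0.82 ± 0.32 missed the threshold over all genes (adjusted p = 0.150) even though the groups did not overlap, and an exact permutation test of this gene alone gave p = 0.00794, the smallest that 5 against 5 samples allow (two-sided, unadjusted, 1 of 36 such tests of single members). The same test gave p = 0.0317 (exact permutation) for Prelp on day 3 and p = 0.0519 for Ogn on day 14, both of which limma called. Adjusted over the 36 tests, neither passed (exact permutation, adjusted p = 0.0635 and 0.0984), and Lum on day 21 had an adjusted p of 0.0260. On day 21 Lum was called with the replicate letter as a block and with the 2 groups fitted alone.

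Prelp, a class II protein with a basic end that binds heparan sulfate and anchors basement membrane to connective tissue, rose on day 3. Its FPKM in control was 3.70, 7.75, 2.55, 6.88 and 6.03, and 6.93, 7.09, 11.4, 9.70 and 9.02 on day 3. The groups overlapped, with 3 of 5 day 3 samples above the highest control sample. The log2 fold change was 0.68 ± 0.22 (SE) on day 3 (limma, adjusted p = 0.0154), and the call was lost without control replicate 3, the lowest control sample (0.49, adjusted p = 0.0691). At days 7, 14 and 21 the log2 fold changes were 0.42, 0.21 and 0.22, and none passed (limma, adjusted p = 0.140, 0.506 and 0.618). On day 7 it was called in 2 of 14 alternatives, FPKM rescaled to a common sum or to each sample's own total. Over the 14 alternatives its day 7 log2 fold change ran from 0.37 to 1.03.

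Fibromodulin, the class II keratan sulfate proteoglycan most abundant in tendon, varied more between samples of a group than any other tested member. Its FPKM was 12.3, 32.9, 5.75, 14.7 and 15.1 in control and 12.2, 8.10, 7.57, 6.44 and 20.2 on day 3. It ran from 8.37 to 46.7 (median 18.3) on day 7 and from 2.15 to 38.4 (median 20.3) on day 14. The values of day 21 were 20.4, 17.4, 20.9, 7.65 and 41.1. The highest sample exceeded the lowest 17.9-fold on day 14 and 5.73-fold in control, whereas Bgn differed 3.10-fold and 1.98-fold in the same groups. The log2 fold change was -0.45 on day 3, 0.37 on day 7, -0.12 on day 14 and 0.40 on day 21, each with an SE of 0.55 to 0.58, and no comparison passed (limma, adjusted p = 0.565 to 0.907). With FPKM rescaled to a common sum, the day 3 and day 14 values turned to 0.30 and 0.31.

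Osteomodulin, a class II keratan sulfate proteoglycan known from bone, was at the edge of detection. It had 0 to 33 reads per sample (FPKM 0 to 0.674) and did not pass the filter on low values. In control it was listed at 0.534, 0.465, 0, 0.0722 and 0.334. On day 21 the list gave 0.0791, 0.134, 0.0795, 0 and 0, and all of these were within the control range. Without the filter, its log2 fold change on day 21 was -0.26 ± 0.11 (SE; limma, adjusted p = 0.367). Of 7 bone markers, Sp7, Dmp1 and Phex were under an FPKM of 0.5 in every sample. Of the 3 that could be tested, Runx2, a transcription factor of bone-forming cells, was higher on day 3 (log2 fold change 0.71) and day 7 (0.33), and Alpl, alkaline phosphatase, was lower at days 3, 7 and 14 (-1.56, -1.26 and -0.95). Their part in the Omd values was not tested.

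Osteoglycin, the class III member, is a small keratan sulfate proteoglycan, and its mean level was highest on day 7. Its FPKM was 6.32, 11.3, 4.82, 5.82 and 7.21 in control and 14.2, 9.10, 13.7, 11.6 and 16.3 on day 3. It ran from 11.1 to 22.6 (median 15.7) on day 7 and from 6.02 to 15.6 (median 12.2) on day 14. On day 21 it had returned into the control range, at 6.44, 6.67, 7.97, 5.08 and 7.68. Control replicate 2 was the sample that overlapped with days 3 and 7. Ogn was higher by 0.81 ± 0.22 (SE, log2) on day 3 (limma, adjusted p = 0.00436), by 1.17 ± 0.21 on day 7 (adjusted p = 0.000439) and by 0.67 ± 0.21 on day 14 (adjusted p = 0.0280). The day 14 call was lost in 6 of 11 fits that left out a sample, those without control replicate 1, 3 or 4 or day 14 replicate 2, 4 or 5, where the adjusted p reached 0.0838. On day 21 the log2 fold change was -0.02 ± 0.22 (adjusted p = 0.968).

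Podocan, of class V, is a collagen-binding protein known to slow the growth of smooth muscle cells, and it was the only member called on day 21. Its FPKM was 1.86, 2.14, 0.898, 1.37 and 2.50 in control and 3.32, 3.87, 3.77, 3.40 and 3.86 on day 3. It ran from 1.79 to 5.03 (median 3.84) on day 7 and from 3.58 to 5.57 (median 4.06) on day 14. On day 21 it was 3.22, 3.04, 3.70, 3.10 and 3.21. All samples of days 3, 14 and 21 were above the control range, and day 7 replicate 5 was the only injured sample inside it. Podn was higher by 0.79 ± 0.17 (SE, log2) on day 3 (limma, adjusted p = 0.000507), by 0.75 ± 0.16 on day 7 (adjusted p = 0.00151), by 0.98 ± 0.16 on day 14 (adjusted p = 0.000346) and by 0.66 ± 0.17 on day 21 (adjusted p = 0.0274). The day 21 call was lost in 5 of 14 alternatives, where the adjusted p reached 0.253, and without control replicate 3 or 4 or day 21 replicate 1 or 2, where it reached 0.0770.

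**Figure D2:**
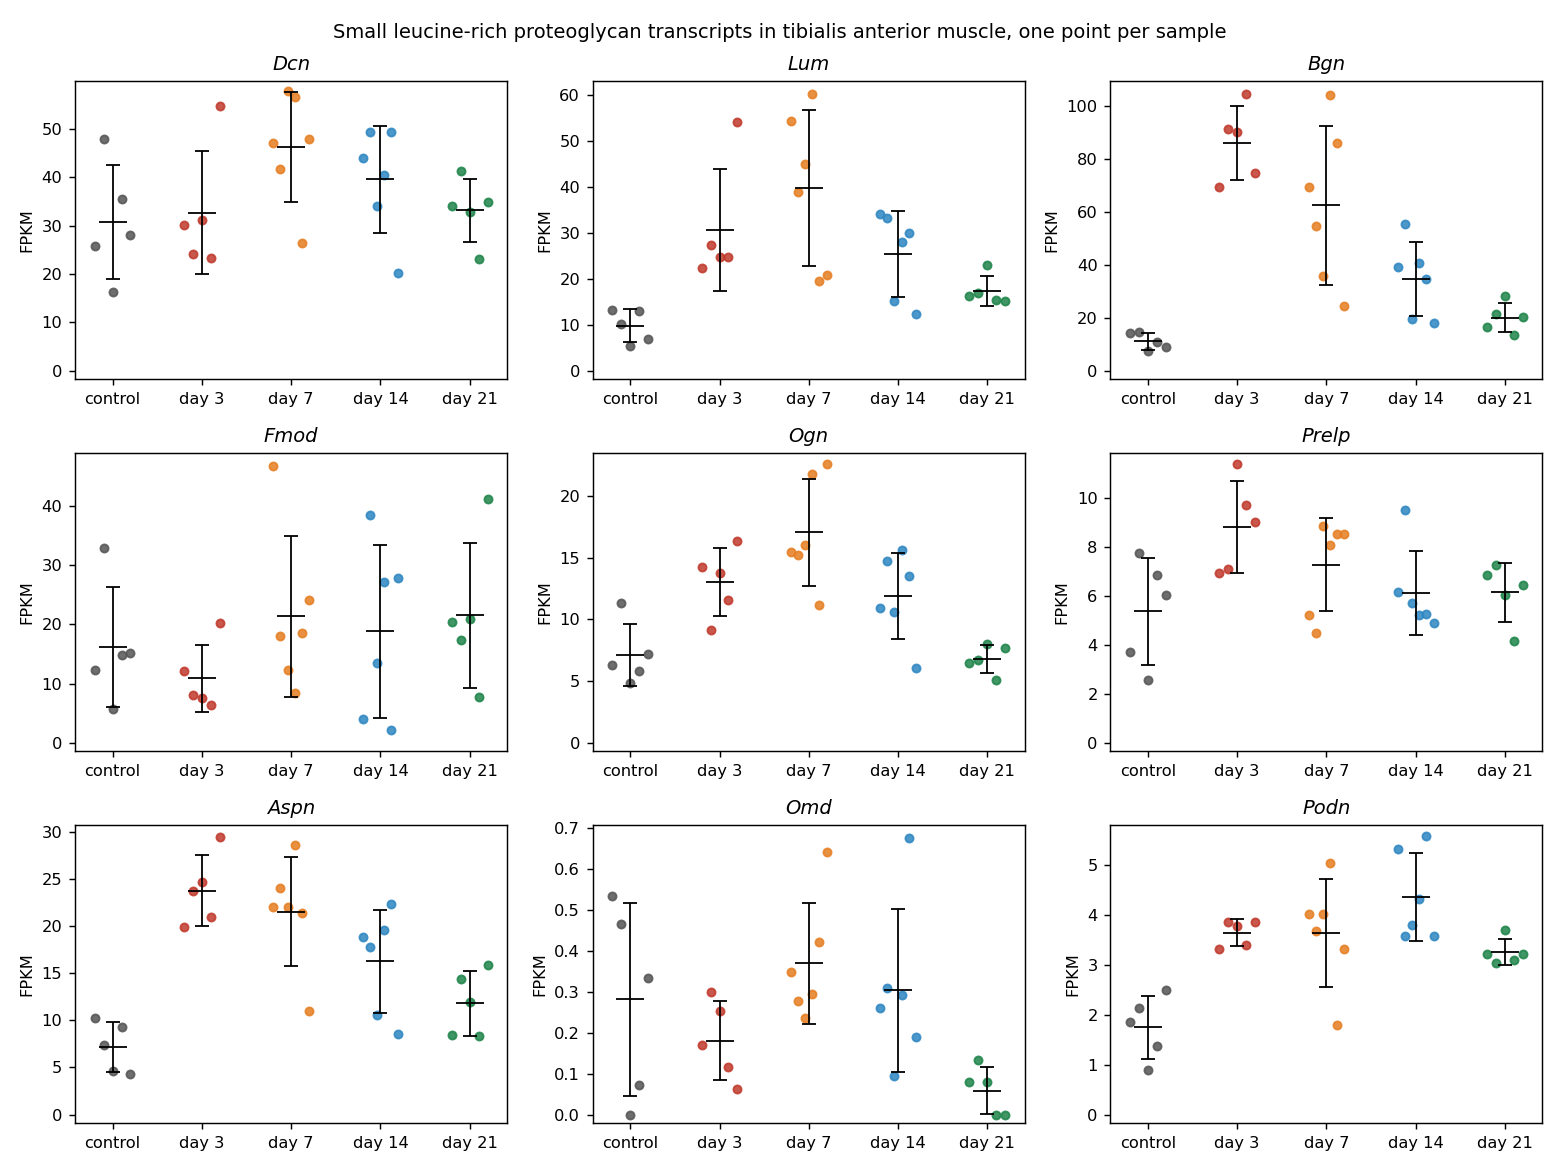
FPKM of the 9 SLRPs in each of the 27 samples by group, with the group mean and SD in black. The day 3 samples of Bgn (69.4 to 104.5), Lum, Aspn and Podn lie above every control sample, the points of Dcn and Fmod overlap in all groups, and Omd stays under 0.7.

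The order of the group means separated the members. From high to low, it was day 3, 7, 14, 21 and control for Bgn and Aspn, day 7, 3, 14, 21 and control for Lum, and day 7, 3, 14, control and 21 for Ogn. Podn was highest on day 14 and lowest in control, Dcn highest on day 7 and lowest in control, and Prelp highest on day 3 and lowest in control. Fmod was highest on day 21 and lowest on day 3. Neighbours in these orders differed past the threshold only for Ogn between day 14 and control and for Podn between day 21 and control. For the other tested pairs of neighbours, the ranges of the samples overlapped and the test was not passed, except Lum between day 21 and control, whose ranges did not overlap.

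No member was called between consecutive times, while Bgn, Aspn and Ogn fell over longer spans. Of all genes tested, 0.0478% were called between days 7 and 3, 0.335% between days 14 and 7 and 0.0% between days 21 and 14. In the last of these comparisons 909 genes had an unadjusted limma p under 0.05, and limma with voom weights on the recovered reads called 0 genes too. Days 7 and 3 differed more without day 3 replicate 5 and day 7 replicate 5, each nearest to the other's group. In that fit 2265 of 14630 genes were called, and 1 member, which was higher on day 7. From day 3 to day 21, 3 of 8 members were called lower, against 16.2% of all genes. Bgn was lower by -2.07 ± 0.32 (SE, log2; limma, adjusted p = 8.71e-05), Aspn by -0.98 ± 0.26 (adjusted p = 0.00761) and Ogn by -0.84 ± 0.22 (adjusted p = 0.00719). Bgn was already lower on day 14 than on day 3, by -1.37 ± 0.31 (adjusted p = 0.00261), as 1 of 8 members against 13.7% of all genes. From day 7 to day 21, Bgn changed by -1.47 ± 0.31 (adjusted p = 0.0113) and Ogn by -1.19 ± 0.21 (adjusted p = 0.00327), which makes 2 of 8 against 1.75% of all genes. These comparisons share samples with each other and with those against control.

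The make-up of the SLRP transcripts changed with the unequal course of the members. The summed FPKM of the 9 genes was 89.7 ± 31.5 (SD, n = 5) in control, 209.6 ± 31.6 on day 3, 219.6 ± 48.7 on day 7, 157.5 ± 44.6 on day 14 and 120.2 ± 25.2 on day 21. Dcn made up 34.1 ± 2.84% of this sum in control, 15.3 ± 3.77% on day 3, 21.6 ± 6.19% on day 7, 25.3 ± 4.42% on day 14 and 27.9 ± 3.61% on day 21. Bgn made up 13.03 ± 2.59%, 41.7 ± 8.65%, 27.7 ± 10.96%, 21.3 ± 3.19% and 16.7 ± 2.73% in the same order. By the group means of FPKM, Bgn was thus the leading SLRP at days 3 and 7, and Dcn in control and at days 14 and 21. Single samples departed from this. On day 7, Dcn exceeded Bgn in replicates 3 and 6. On day 14, Bgn exceeded Dcn in replicates 2 and 4, and Fmod exceeded Dcn in replicate 6. On day 21, Fmod exceeded Dcn in replicate 5. The change of the leading member was not tested.

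**Figure D3:**
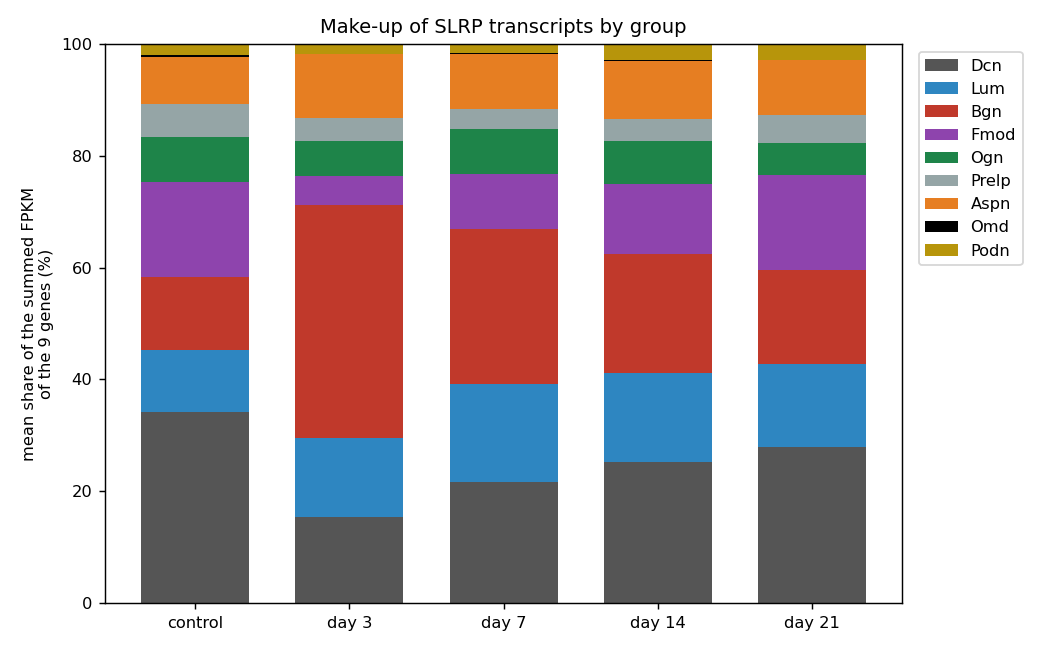
Mean share (%) of each of the 9 genes in their summed FPKM per group, stacked to 100. The Dcn segment shrinks from 34.1% in control to 15.3% on day 3 while that of Bgn widens from 13.03% to 41.7%, and both move back by day 21.

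The ratio of 2 members within a sample does not depend on how that sample was scaled, apart from the pseudocount. The log2 ratio of Dcn to Bgn, both of class I, was 0.82 to 1.63 in control, -2.12 to -0.44 on day 3, -1.67 to 0.93 on day 7, -0.16 to 0.75 on day 14 and 0.20 to 0.996 on day 21. All samples of days 3 and 14 were below the control range, 5 of 6 on day 7 and 3 of 5 on day 21. The mean was lower than in control by -2.75 on day 3, -1.64 on day 7 and -1.10 on day 14 (two-sided exact permutation tests, p = 0.00794, 0.00866 and 0.00433, adjusted p = 0.0208 each over 24 tests of ratios) and by -0.61 on day 21 (exact permutation, p = 0.0317, adjusted p = 0.0476). The calls at days 3, 7 and 14 were kept with any 1 sample left out, whereas that of day 21 was lost in 8 of 10 such fits (exact permutation, adjusted p up to 0.0952) and with a pseudocount of 0.1 (-0.66, exact permutation, adjusted p = 0.0762).

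The ratio of Dcn to its genomic neighbour Lum was lower by -1.44, -1.25 and -0.89 at days 3, 7 and 14 (exact permutation, p = 0.00794, 0.00866 and 0.00866, adjusted p = 0.0208 each), and the difference of -0.65 on day 21 did not pass (exact permutation, p = 0.0476, adjusted p = 0.0672). All 5 day 3 samples were below the control range of 0.90 to 2.11, and 2 of 5 on day 21. The 2 genes of the chr1 pair also differed in course: the ratio of Fmod to Prelp was lower by -1.13 on day 3 (exact permutation, p = 0.0238, adjusted p = 0.0408), with 4 of 5 samples below the control range, and no later time passed. Likewise the ratio of Ogn to Aspn was lower by -0.83 on day 3 (exact permutation, p = 0.0238, adjusted p = 0.0408) and not called later. Each of these calls was lost in 9 of 10 fits that left out a sample (exact permutation, adjusted p up to 0.0762) and with a pseudocount of 0.1 (exact permutation, adjusted p = 0.0635 and 0.0952), while the Dcn to Lum calls were kept in all of them. Ratios to Omd rested on 0 to 33 reads and are not described.

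**Figure D4:**
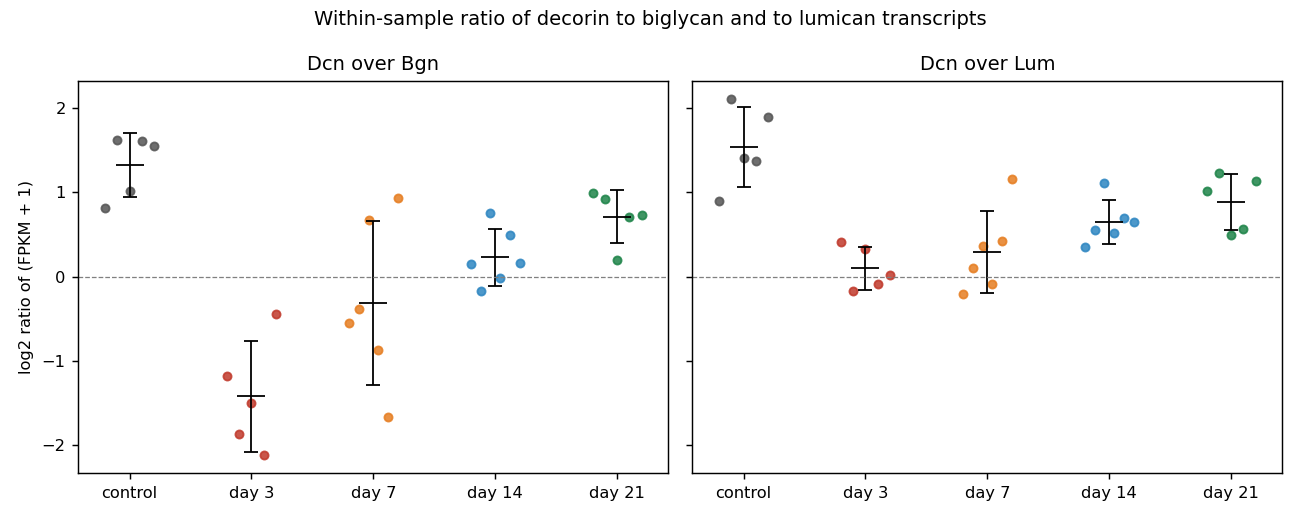
Log2 ratio of (FPKM + 1) of Dcn to Bgn (left) and to Lum (right) in each sample, with group mean and SD in black and a dashed line at equal levels. The Dcn to Bgn ratio is above 0 in all control samples and below 0 in all day 3 samples, and the Dcn to Lum ratio is around 0 on day 3 (-0.16 to 0.41).

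Over the 27 samples, Bgn, Aspn and Lum were among the members most alike, and Fmod was unlike all of them. Pearson's r on log2(FPKM + 1) was 0.913 between Bgn and Aspn, 0.896 between Lum and Aspn and 0.805 between Lum and Bgn, and Dcn was closest to Ogn (0.714). Lum was also alike to Ogn (0.760) and Podn (0.738). Pairs that were less alike included Dcn and Bgn (0.303), Prelp and Podn (0.315) and Lum and Prelp (0.422). After the group means were taken out, the first 4 of these became 0.729, 0.764, 0.558 and 0.816. The r of Fmod with the other tested members was -0.12 to 0.22. All points share the time after injury and the scaling of each library, so these values are descriptions.

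The non-member genes most like Bgn were Col5a2 (r = 0.976), Col5a1 (0.974) and Loxl1 (0.973), which encode collagen V chains and an enzyme of elastic fibre cross-linking. Aspn was most like Postn (0.947), Col3a1 (0.942) and Mmp23 (0.940), and Lum like the fibril-associated collagen gene Col14a1 (0.951), Fndc1 (0.941) and Antxr1 (0.941). Dcn stood nearer to the complement gene C1s1 (0.840), the basement membrane gene Nid1 (0.786) and the C1 inhibitor gene Serping1 (0.785). Ogn was most like Scara3 (0.890), Matn2 (0.880) and Fndc1 (0.831), Podn like Ace (0.825), Mfap4 (0.817) and Usp20 (0.795), and Prelp like Tmem107 (0.777), Anxa8 (0.763) and Rnase4 (0.737).

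Fmod was most like Chad (r = 0.840) and Kera (0.832), which encode the leucine-rich repeat proteins chondroadherin and keratocan, and Cilp2 (0.809). With group means taken out, r was 0.836, 0.869 and 0.864. The sample highest in Fmod was also highest in Cilp2 in all 5 groups, in Kera in 4 of 5 and in Tnmd, which encodes the tendon protein tenomodulin, in 4 of 5. It was highest in Chad in 3 of 5 groups and in Scx, a transcription factor of tendon cells, in 2 of 5. The sample lowest in Fmod was also lowest in Chad in 5 of 5 groups and in Cilp2 in 3 of 5. It was lowest in Tnmd in 2, in Kera in 1 and in Scx in 0 of 5 groups. On days 3 and 21 the sample highest in Fmod, replicate 5 of each, was the lowest of its group in Scx (FPKM 11.9 and 5.45). On day 7, for example, replicate 1 had an FPKM of 46.7 for Fmod, 14.1 for Kera and 27.1 for Tnmd, against group medians of 18.3, 3.47 and 10.1. The summed FPKM of 8 tenocyte markers, which include Kera and Cilp2, ran from 39.0 to 86.6 in control, 77.6 to 158.3 on day 3, 75.4 to 230.4 on day 7, 44.2 to 170.3 on day 14 and 36.4 to 155.8 on day 21. None of these markers was under an FPKM of 0.5 in every sample, and of the 7 that could be tested, 3 were called higher on day 3, 3 on day 7, 2 on day 14 and 1 on day 21. Among all genes tested, 23.4%, 15%, 9.02% and 1.74% were called higher at these times. The r of the 7 tested markers with Fmod ran from -0.03 to 0.83 (median 0.684). The part of the tenocyte markers in the Fmod values was not tested.

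**Figure D5:**
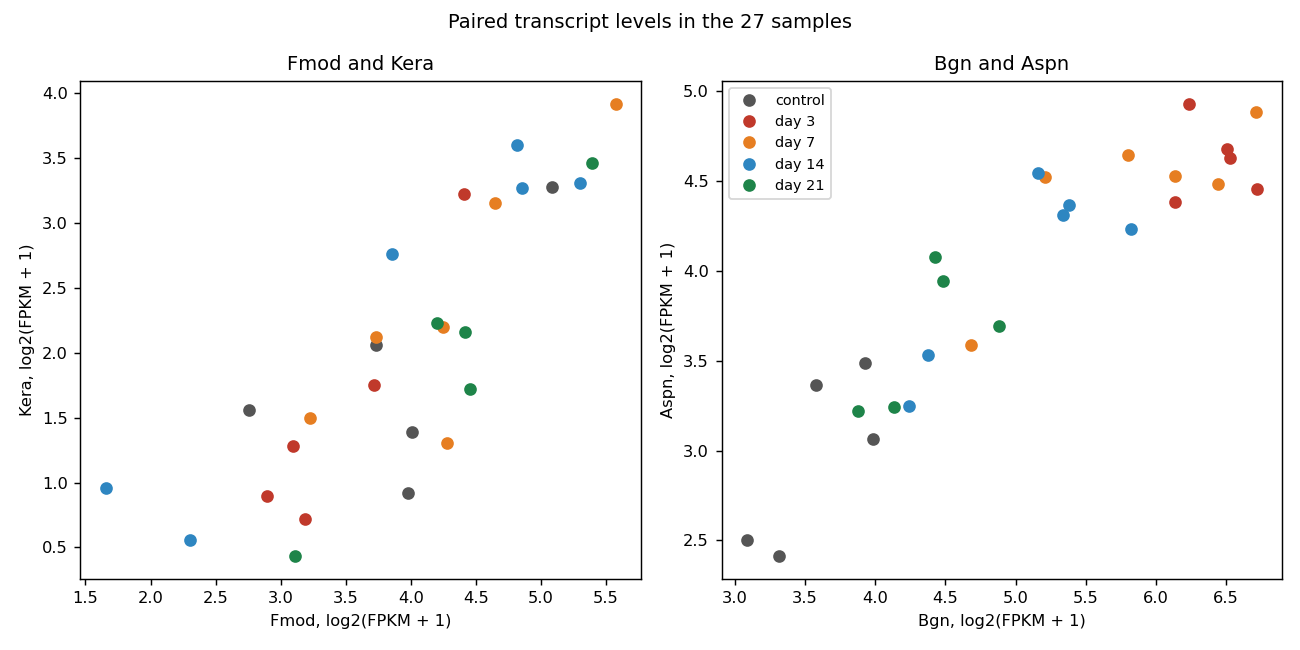
Log2(FPKM + 1) of Fmod against Kera (left) and of Bgn against Aspn (right) in the 27 samples, coloured by group. Fmod and Kera rise together over the 27 samples (r = 0.832) with the groups mixed. Bgn and Aspn (r = 0.913) line up from control at lower left to days 3 and 7 at upper right.

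Marker transcripts of several cell types also differed from control. Of 9 fibroblast and fibro-adipogenic progenitor markers tested, 4 were higher on day 3, 4 on day 7, 5 on day 14 and 0 on day 21, led on day 3 by Mfap5 (log2 fold change 1.95) and Dpt (1.04), and their summed FPKM over 12 genes was 196.3 to 303.1 in control and 255.7 to 472.3 on day 3. Of 7 macrophage markers, 7 were higher on day 3, with a sum of 16.9 to 24.8 in control and 312.1 to 2137 on day 3. Of these 7, 3 were under an FPKM of 0.5 in every control sample, so they passed the filter on low values through injured samples. Of 11 muscle fibre markers, 9 were lower on day 3, with a sum of 86380 to 104500 in control and 21160 to 57220 on day 3. Of all genes, 19.8% were called lower on day 3, 14.4% on day 7, 11.3% on day 14 and 1.69% on day 21. The shares called higher at the same times were 23.4%, 15%, 9.02% and 1.74%. All 11 muscle fibre markers were above an FPKM of 0.5 in control, as the tissue label says. Of 6 myogenic progenitor markers, 5 were higher on day 3, and of 4 tested adipocyte markers, 4 were higher on day 7. Of the 5 adipocyte markers listed, 2 were under an FPKM of 0.5 in every control sample. None of 6 Schwann cell markers was called at any time. Of 6 endothelial markers, 2 were lower on day 3 and 1 at each later time, and of 6 smooth muscle and pericyte markers, 1 was higher and 2 were lower on day 3, 1 was lower on day 7 and none was called later. Of 7 cartilage genes, Acan, Col2a1, Matn1, Matn3 and Hapln1 were under 0.5 in every sample, and of the 2 that could be tested, Sox9 was higher on day 3 (log2 fold change 0.80), day 7 (0.69) and day 14 (0.74) and Col9a1 was not called. The part of these shifts in the SLRP values was not tested.

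Of the genes that build or use SLRPs, most called ones rose early and few on day 21. Of all genes tested, 23.4% were called higher on day 3 and 1.74% on day 21. Of 9 other members of the family, 6 could be tested, and Tsku and Podnl1 were higher on day 3 by 1.83 and 0.81 (log2), from a mean FPKM of 0.234 and 0.0419 in control, so that both passed the filter on low values through injured samples. Both were also higher on day 7, Tsku alone on day 14, and none on day 21. The collagens to which SLRPs bind were higher in 7 of 10 fibrillar genes on day 3, 8 on day 7, 6 on day 14 and 3 on day 21, with Col1a1 at 3.66 and Col3a1 at 3.16 on day 3 and at 1.44 and 1.61 on day 21. The median log2 fold change of this list was 1.99 on day 3 and 0.81 on day 21. Of 22 genes of chondroitin and dermatan sulfate synthesis, 11 were higher and 1 lower on day 3, 9 and 0 on day 7, 4 and 1 on day 14, and none was called on day 21. Chpf, a chondroitin polymerizing factor, and Dse, the epimerase that turns chondroitin into dermatan sulfate, led on day 3 with 1.64 and 1.53. Of 5 keratan sulfate genes, 3, 2, 1 and 0 were higher at days 3, 7, 14 and 21, led by the sulfotransferases Chst1 (0.97) and Chst2 (0.68) on day 3.

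Calls among genes for processing and turnover also fell over time, as did the share of all genes called higher. Bmp1, the protease that cuts the propeptides of procollagen and of some SLRPs, and Pcolce, its enhancer, were higher on day 3 by 1.42 and 1.79, and 2 of 3 tested genes of this list were higher at days 3, 7 and 14 and none on day 21. Of 3 genes of tyrosine sulfation, a change made on the ends of Fmod and Omd, 2 were higher on day 3 (Slc35b2 0.69, Tpst2 0.46), 1 on day 7 and none later. Of 8 proteases that can cut SLRPs, 5, 4, 3 and 1 were higher, and Mmp14, a membrane metalloprotease, was higher by 2.51 on day 3 and 1.09 on day 21. Of 17 signalling partners, 10 were higher and 3 lower on day 3, 11 and 1 on day 7, 6 and 2 on day 14, and 1 and 1 on day 21. Tgfb1 (2.35) and the endocytic receptor Lrp1 (1.79) led on day 3, and on day 21 Tgfbr3, a TGF-beta co-receptor that is itself a proteoglycan, was higher by 0.74 and Kdr, a VEGF receptor to which decorin binds, was lower by -0.90. All of these are limma log2 fold changes with an adjusted p under the threshold over all genes. The share of all genes called higher was 23.4% on day 3, 15% on day 7, 9.02% on day 14 and 1.74% on day 21.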

How the data were processed

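Poly-A RNA of 27 tibialis anterior samples was sequenced without strand by Novogene. The authors filtered the reads, aligned them with HISAT2 2.0.5, counted them per gene with featureCounts 1.5.0-p3 and deposited FPKM for 54532 genes with gene lengths; the FPKM had been normalized in a way not given in the sources used here. The deposited FPKM times gene length gave whole reads for 100% of the values (tolerance 0.05), with 14376395 to 24436763 reads per sample, and genes with few reads are the least precise. Positions are those of the file, and 98.3% of the genes had the same coordinates in GENCODE M21 (GRCm38).

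Groups were read from the sample titles, the labels give no batch or date, and no samples held identical values. After a pseudocount of 1, the 14630 genes that reached an FPKM of 0.5 in 5 or more samples entered 1 limma fit (version 3.58.1, R 4.3.3) of all samples, with a mean per group and a variance trend. Tests were two-sided, and p-values were adjusted per comparison by the Benjamini-Hochberg method. The fit was tested on simulated data. Single members and ratios of 2 members were compared with exact permutation tests in Python 3.11.15. All 9 members were described, with the 3 genes of highest Pearson r per member and, per gene list, the 2 called genes with the largest change at days 3 and 21. The members, lists and markers were chosen with earlier results of these data known, so their counts are descriptions. Other pseudocounts, filters, scalings, voom weights, replicate blocks, fits of 2 groups and each sample left out in turn were tried.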

Additional observations from a re-analysis of the deposited data

Results flagged for a closer look

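In 45 groups of values, each member in each group, the highest or the lowest sample was compared with the others of its group by Dixon's ratio of the gap to the range, and 6 stood apart. Chance flags about 1 in 20 such groups. On day 3, replicate 5 was highest for Dcn, at an FPKM of 54.6, and for Lum, at 54.0. This library was also highest in its group for Fmod and Tnmd and lay nearest to the mean of day 7. On day 21, replicate 3 was highest for Lum, at 23.05, and for Podn, at 3.70. On day 14, replicate 2 was highest for Prelp, at 9.53, and replicate 5 for Omd, at 0.674, which rests on 26 reads. Without day 3 replicate 5 the log2 fold change of Dcn on day 3 was -0.10 (limma, adjusted p = 0.804) in place of 0.10, and Lum stayed called with a log2 fold change of 1.32 without it.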

How the results depend on the processing

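The calls of Bgn, Lum, Aspn and Podn at days 3, 7 and 14 and of Ogn at days 3 and 7 were kept in all 14 alternatives and with any 1 sample left out. The number of members called on day 21 was 1, and it was 0 without a filter, with quantile normalization, a common sum, each sample's own total or voom weights, 3 with only the 2 groups fitted, and 0 to 1 with a sample left out. It was 1 in place of 0 between days 7 and 3 without day 3 replicate 5 and day 7 replicate 5, 5 in place of 3 between days 21 and 3 with a common sum or own total, 2 in place of 1 between days 14 and 3 with own total, and between days 21 and 7, where it was 2, it was 4 with a common sum or own total, 1 with the 2 groups alone and 2 to 4 with a sample left out (4 without day 7 replicate 6). The cause was not tested.

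Members that were not called changed sign under some settings. With a common sum and with own total, Fmod was 0.30 and 0.15 on day 3 and 0.31 and 0.24 on day 14, and Ogn was 0.14 in each on day 21. Without day 3 replicate 5 and day 7 replicate 5, Dcn was -0.10 on day 3. With a sample left out, Dcn ran from -0.10 to 0.28 on day 3 and from -0.031 to 0.34 on day 21, Fmod from -0.42 to 0.31 on day 14, Ogn from -0.13 to 0.14 on day 21, and the ratio of Fmod to Prelp from -0.38 to 0.20 on day 7, -0.58 to 0.072 on day 14 and -0.069 to 0.37 on day 21. The ratios of Dcn to Bgn and Dcn to Lum kept their calls at days 3, 7 and 14 with any 1 sample left out, and those of Dcn to Bgn on day 21 and of Fmod to Prelp and Ogn to Aspn on day 3 lost theirs in 8, 9 and 9 of 10 such tests.

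Genes called numbered 502 on day 21, and 49 with a common sum, 1477 with the 2 groups alone and 190 to 568 with a sample left out. On day 14 they numbered 2969 and 1785 with a common sum, on day 7 4296 and 6513 with a common sum, between days 7 and 3 7 and 1 to 2265, between days 14 and 7 49 and 5 to 151, and between days 21 and 7 329 and 19 to 1261. The 2265 came from leaving out day 3 replicate 5 and day 7 replicate 5.

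Deviations of same-numbered samples correlated by over 0.1 in 15 of 51 pairs (median -0.003) and those of same-lettered samples in 15 of 49 (median 0.02). Such correlations cannot settle whether samples were paired or shared a batch. On day 21, 795 genes were called with the number as a replicate block and 1233 with the letter, in place of 502. With the number as a replicate block, 4 members were called between days 21 and 7. With the letter of the descriptions as a replicate block, 4 members were called on day 21 (Bgn, Lum, Aspn and Podn), 6 on day 7 with Dcn, and Ogn was 0.056 on day 21. Depth limits Omd, with at most 33 reads, and the lower values of Podn, with 45 reads in its lowest sample.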

Other observations

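Other genes of the leucine-rich repeat family stand beside the members in the genome. Ecm2, before Aspn on chromosome 13, had a mean FPKM of 3.18 ± 0.56 (SD, n = 5) in control and 2.51 ± 0.81 on day 3 and was called at none of the 4 times (limma, log2 fold change -0.27 on day 3, adjusted p = 0.243). Kera, after Lum on chromosome 10, had 3.26 ± 3.14 in control and 2.73 ± 3.21 on day 3 and was not called either (log2 fold change -0.26, adjusted p = 0.770). Epyc, the next gene after Kera, had no more than 3 reads in any sample, and Optc, beside Prelp, no more than 11. Tsku, on chromosome 7 with no member near it, was at 0 to 0.381 in control, 2.20 to 4.72 on day 3 and 0.508 to 1.09 on day 21, above the control range in all samples of both times, and the limma log2 fold change on day 21 was 0.55 (adjusted p = 0.0763).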
